A study of Mus musculus with 20 samples.

Results

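Serpins are protease inhibitors that present a loop as bait, and a protease that cuts the loop is trapped in a covalent complex with it. Clade B serpins lack a classical secretion signal and act mainly inside cells, where they protect the cytoplasm from proteases that leak from granules and lysosomes. In the brain they are expressed by neurons, glia and blood-derived cells. The genes described here are Serpinb6a and 4 further clade B serpins, Serpinb6b, Serpinb1a, Serpinb9 and Serpinb8, each taken as the row of the deposited count table that holds its symbol. These are 5 rows of 26475 with a gene symbol, and all 5 passed the filter on low counts that left 17206 rows for testing. The members were chosen by their CPM and log2 fold changes between the mouse lines in an earlier look at the same libraries, so their line differences are given here as a description, with no test. Their responses to amphetamine, and the line differences of other genes, were tested with edgeR over all rows.

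RNA was sequenced from the whole striatum of 20 male Collaborative Cross mice, a population bred from several inbred founder strains, at about 6 months of age. The overactive line had been selected for high activity in the home cage, and a second line served as its control. Mice received d-amphetamine at 25 mg/kg, which releases dopamine from nerve terminals, or saline, and tissue was taken 2 hours later. The groups were overactive line with amphetamine, overactive line with saline, control line with amphetamine and control line with saline, with 5 mice and 1 library per mouse in each.

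Library totals lay between 31393788 and 53773028 counts. All 9 striatal projection neuron marker genes passed the filter, with a summed level between 3770 and 6060 CPM (counts per 1000000, with library sizes scaled by TMM, the unit of every level below). Cortical neuron markers varied widely among libraries, from 125 to 984 CPM summed over 5 genes. T cell and natural killer cell markers summed to at most 0.246 CPM. Between the lines, 1.11% of the 17206 rows passed an edgeR adjusted p of 0.05 in saline mice, 0.453% in amphetamine mice and 7.02% with the treatments averaged.

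Serpinb6a (chromosome 13, 33917917 to 34035170 in the table, 33917918 to 34002794 on the minus strand in GENCODE) encodes an inhibitor of cathepsin G and of trypsin-like proteases, and loss of human SERPINB6 causes deafness. It was the highest of the 5 by level per length of exon, at 5.20 ± 1.53 CPM per kb over all libraries (SD, n = 20). The shared row of Serpinb1a and Serpinb1c followed at 2.41 ± 0.709 and Serpinb9 at 2.22 ± 0.330 CPM per kb, and these 2 did not differ beyond their spread. Serpinb6b at 0.830 ± 0.219 and Serpinb8 at 0.792 ± 0.472 CPM per kb were lowest and also lay within each other's spread. Of the CPM summed over the 27 clade B rows, Serpinb6a held 40.8% ± 3.83 in overactive mice with amphetamine, 42.4% ± 2.56 in overactive mice with saline, 57.2% ± 3.50 in control mice with amphetamine and 50.3% ± 6.79 in control mice with saline (SD, n = 5 each).

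The promoter windows of Serpinb6a, of its paralog Serpinb6b and of Bphl, a nearby gene beyond Ripk1, are shown because the values of these genes between the lines are described in the results that follow. Each is the 250 bases before the annotated start, from RefSeq on GRCm38.p6, the C57BL/6J sequence, written 5′ to 3′ on the gene's strand. Capitals mark the GC box GGGCGG or its reverse complement CCGCCC, and the ETS core CCGGAA or its reverse complement TTCCGG. Positions are chr13:34002795-34003044 on the minus strand for Serpinb6a, chr13:32965011-32965260 on the plus strand for Serpinb6b and chr13:34037391-34037640 on the plus strand for Bphl.
Serpinb6a: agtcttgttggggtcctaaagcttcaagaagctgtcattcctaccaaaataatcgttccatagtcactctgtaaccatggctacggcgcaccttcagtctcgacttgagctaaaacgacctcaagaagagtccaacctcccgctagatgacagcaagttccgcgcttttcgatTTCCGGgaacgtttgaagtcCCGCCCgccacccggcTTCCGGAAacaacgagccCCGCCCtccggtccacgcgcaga
Serpinb6b: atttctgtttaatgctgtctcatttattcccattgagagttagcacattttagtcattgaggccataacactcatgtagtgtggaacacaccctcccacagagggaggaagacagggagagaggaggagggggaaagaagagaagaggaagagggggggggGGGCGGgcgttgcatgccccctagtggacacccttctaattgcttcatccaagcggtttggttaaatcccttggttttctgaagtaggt
Bphl: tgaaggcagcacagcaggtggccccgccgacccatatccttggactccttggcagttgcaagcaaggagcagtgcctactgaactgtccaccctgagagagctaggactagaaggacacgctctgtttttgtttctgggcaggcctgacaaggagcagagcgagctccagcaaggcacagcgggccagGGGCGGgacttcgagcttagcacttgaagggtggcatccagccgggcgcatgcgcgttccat
The Serpinb6a window held 2 GC boxes and 3 ETS cores, of which a pair overlap in opposite directions. The windows of Serpinb6b and Bphl held 1 GC box each and 0 ETS cores. Over all 32851 windows of the same length, 32.7% held a GC box and 12% an ETS core. RefSeq lists a second start for Serpinb6a, at chr13:33936084-33936333, whose window held 0 of either motif and 1 CCAAT box (CCAAT or ATTGG, in 33.8% of windows). Windows of Serpinb9 and Serpinb8 held 0 GC boxes, ETS cores, CCAAT boxes or TATA boxes (TATAAA or TTTATA, in 12.4% of windows).

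Serpinb6a was lower in the overactive line, most widely so among mice given amphetamine. In overactive mice with amphetamine libraries 1 to 5 held 22.4, 23.4, 22.1, 21.0 and 20.6 CPM, against 36.5, 38.0, 35.4, 49.1 and 35.7 CPM in control mice with amphetamine. All 5 overactive libraries lay below all 5 control libraries, with library 4 of the control line standing above the rest. The log2 fold change was -0.83 (SE 0.12), or 0.561-fold. Among all tested rows, 1.36% were lower without overlap in this comparison, from which nothing is read here since the gene was chosen for it.

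In saline the groups overlapped. Overactive mice held 22.1, 19.9, 20.8, 25.0 and 23.4 CPM, against 24.6, 38.6, 25.7, 34.7 and 24 CPM in control mice. Control libraries 2 and 4 stood at the level of control mice with amphetamine, while libraries 1, 3 and 5 stood close to the overactive mice. The log2 fold change was -0.41 (SE 0.12) in saline and -0.62 (SE 0.09) over both treatments. Leaving out 1 library at a time gave -0.47 to -0.29 in saline. In bulk tissue, fewer cells of an expressing type and less RNA per cell cannot be told apart.

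The sorted Serpinb6a levels of the 20 libraries were divided at the gap between 25.7 and 34.7 CPM, into parts called the lower and the upper cluster. The gap was picked from these same values, so the lack of values in between is by construction. No value lay between 38.6 and 49.1 CPM in the upper cluster either. Whether the levels form separate clusters was not tested. The lower cluster, 19.9 to 25.7 CPM, held all 10 overactive libraries and 3 control saline libraries. The upper cluster, 34.7 to 49.1 CPM, held all 5 control amphetamine libraries and the other 2 control saline libraries. Pearson r of Serpinb6a with the marker lists that had tested genes ran from -0.279 (endothelial) to 0.508 (neutrophil and monocyte) over 20 libraries. It was 0.297 for cortical neurons. The neutrophil and monocyte value rests on 2 tested genes. Summed over 5 rows, these markers had medians of 2.98 and 2.38 CPM in overactive mice with amphetamine and saline. In control mice with amphetamine and saline the medians were 5.07 and 6.52 CPM. The part of the marker lists in the Serpinb6a level was not tested.

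**Figure D1:**
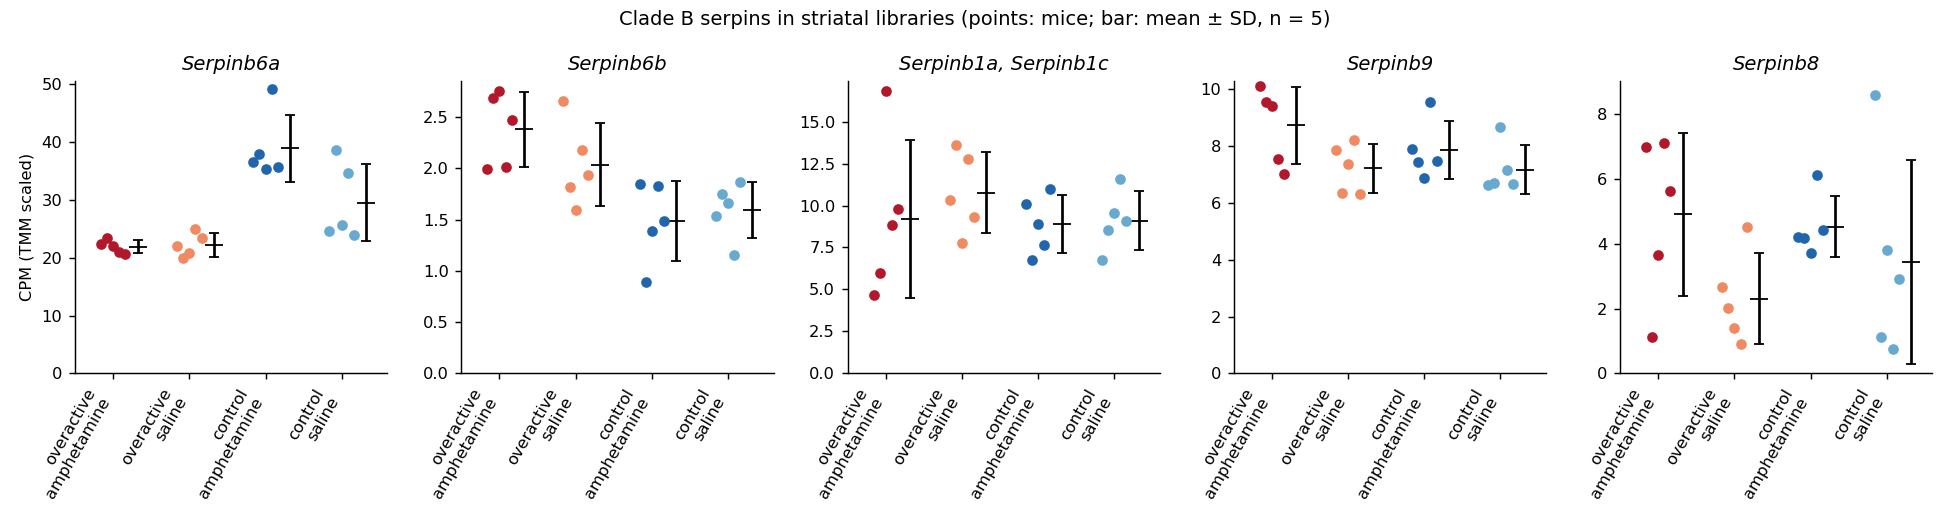
CPM of each of the 5 clade B serpin rows (vertical axes, from 0) in the 4 groups of 5 mice (horizontal axes). Points are mice and bars are mean ± SD. Serpinb6a lay between 19.9 and 25.0 CPM in overactive mice and between 35.4 and 49.1 CPM in control mice with amphetamine, and Serpinb8 spread from 0.759 to 8.61 CPM.

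Serpinb6b (chromosome 13, 32965235 to 32979037), a close paralog in the same gene cluster, had higher values in the overactive line and rested on 28 to 151 counts per library. In overactive mice with amphetamine it held 1.99, 2.69, 2.76, 2.01 and 2.47 CPM, against 1.85, 0.895, 1.39, 1.83 and 1.49 CPM in control mice with amphetamine. The groups did not overlap, although the lowest overactive and highest control libraries nearly met, and 1.57% of all tested rows were higher without overlap in this comparison. The log2 fold change was 0.67 (SE 0.19). In saline overactive mice held 2.66, 1.82, 1.59, 2.18 and 1.94 CPM, against 1.54, 1.75, 1.66, 1.16 and 1.87 CPM in control mice. These groups overlapped, with a log2 fold change of 0.35 (SE 0.19), and the value over both treatments was 0.51 (SE 0.14). Oligodendrocyte markers moved with it (Pearson r 0.573 over 20 libraries). Their summed level had a median of 3220 CPM in overactive amphetamine and 3140 CPM in overactive saline libraries, against 2800 CPM in each control group, and their part in the result was not tested. Thalamic neuron markers also moved with it (r 0.532), with medians of 129 and 133 CPM in overactive mice with amphetamine and saline and of 124 CPM in each control group, and their part was not tested either. Serpinb6a and Serpinb6b had an r of -0.554 over libraries and of 0.074 once each group's mean was removed.

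Serpinb1a shares its row with Serpinb1c (chromosome 13, 32841290 to 32898140), so the pair cannot be told apart. Mouse Serpinb1a inhibits neutrophil elastase, cathepsin G and proteinase 3. In overactive mice with amphetamine the row held 4.69, 6.00, 16.8, 8.81 and 9.77 CPM, and in overactive mice with saline 10.3, 13.6, 7.78, 12.8 and 9.32 CPM. Control mice with amphetamine held 10.1, 6.74, 8.88, 7.67 and 11 CPM, and control mice with saline 6.75, 8.53, 9.54, 11.6 and 9.05 CPM. All groups overlapped, and overactive amphetamine library 3 was the highest of the 20. The log2 fold change between the lines was 0.15 (SE 0.18) over both treatments. Its level ran against the neutrophil and monocyte markers (r -0.640, n = 20), a value that rests on 2 tested genes. Summed over all 5 rows, these markers had medians of 2.98 and 2.38 CPM in overactive mice with amphetamine and saline. In control mice with amphetamine and saline the medians were 5.07 and 6.52 CPM. The part of these markers was not tested.

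Serpinb9 (chromosome 13, 33004540 to 33017955) inhibits granzyme B, the killer protease of cytotoxic lymphocytes. Its levels were 10.1, 9.54, 9.42, 7.55 and 7.02 CPM in overactive mice with amphetamine and 7.88, 6.34, 7.37, 8.20 and 6.33 CPM in overactive mice with saline. Control mice with amphetamine held 7.89, 7.45, 6.88, 9.55 and 7.49 CPM, and control mice with saline 6.62, 6.70, 8.66, 7.17 and 6.67 CPM. It was the steadiest of the 5, with every library between 6.33 and 10.1 CPM, all groups overlapping and a log2 fold change between the lines of 0.08 (SE 0.09). Meningeal markers (r 0.675, n = 20) and thalamic neuron markers (r 0.531) moved with it, and their part was not tested.

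Serpinb8 (chromosome 1, 107589987 to 107612256), whose human counterpart inhibits the proprotein convertase furin, lies apart from the other 4, which are all on chromosome 13. Overactive mice with amphetamine held 7, 1.13, 3.66, 7.11 and 5.63 CPM, and overactive mice with saline 2.66, 2.02, 1.39, 0.917 and 4.52 CPM. Control mice with amphetamine held 4.20, 4.19, 3.71, 6.13 and 4.44 CPM, and control mice with saline 8.61, 1.13, 3.82, 0.759 and 2.90 CPM. It spread within groups more than between them, and the log2 fold change between the lines was -0.23 (SE 0.39). Its level followed the 5 cortical neuron markers, with r 0.854 and Spearman's rho 0.820 over 20 libraries and r 0.814 without the 2 libraries farthest from the median marker score. Within lines r was 0.932 for overactive and 0.907 for control mice (n = 10 each). The summed cortical markers had medians of 547 CPM in overactive amphetamine, 156 CPM in overactive saline, 707 CPM in control amphetamine and 431 CPM in control saline libraries. Their part in the Serpinb8 level was not tested.

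**Figure D2:**
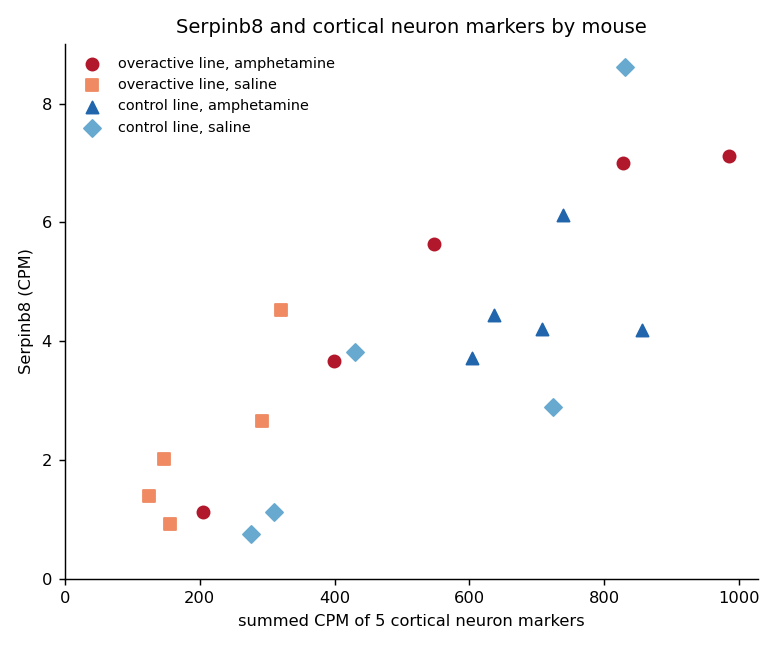
Serpinb8 in CPM (vertical axis) against the summed CPM of 5 cortical neuron markers (horizontal axis) in 20 mice, with 1 symbol per group. The 5 overactive saline libraries held at most 321 CPM of the markers and at most 4.52 CPM of Serpinb8, and the 3 libraries highest in Serpinb8, at 7 to 8.61 CPM, held 827 to 984 CPM of the markers.

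The response to amphetamine was tested for each of the 5, within each line, over both lines and as a difference between the lines. With edgeR 0 of 5 passed in any of the 4 comparisons, where 0% of all rows passed, and DESeq2 called 0 of 5 as well, where it called 40 of all rows in the overactive line, 0 in the control line, 181 with the lines averaged and 0 for the difference. At an unadjusted p under 0.05, edgeR counted 1 of 5 in the overactive line (8.03% of all rows), 1 in the control line (5.56%), 2 over both lines (11%) and 1 for the difference between the lines (2.96%). DESeq2 counted 2, 1, 3 and 1 of them, and 1542, 1051, 2082 and 570 of all 17206 rows. The member counted in the control line was Serpinb6a, which was also counted over both lines, with Serpinb9. Its control amphetamine values are among those by which it was chosen, so nothing is read from the counts in these comparisons. The difference between the lines in response is also the difference between the line values by which the members were chosen, so nothing is read from its member count.

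Serpinb6a averaged 21.9 ± 1.14 CPM with amphetamine and 22.2 ± 2.07 CPM with saline in the overactive line (SD, n = 5 each), and edgeR put the log2 fold change at -0.02 (SE 0.12, adjusted p = 0.988). In the control line it averaged 38.9 ± 5.79 CPM with amphetamine and 29.5 ± 6.70 CPM with saline, where the edgeR value was 0.40 (SE 0.12, adjusted p = 0.856). The levels of both lines are among the values that chose the gene, so the fold change in either line is a description only. Control amphetamine mice were all in the upper cluster, and control saline mice were split between the clusters. The response of the overactive line minus that of the control line was -0.42 (SE 0.17, 95% interval -0.79 to -0.06, edgeR adjusted p = 1.0). It equals the line difference under amphetamine minus that in saline, the values that chose the gene, and is a description only.

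Serpinb9 averaged 8.72 ± 1.35 CPM with amphetamine and 7.22 ± 0.862 CPM with saline in overactive mice. The edgeR log2 fold change was 0.27 there (SE 0.12, adjusted p = 0.558) and 0.20 with the lines averaged (SE 0.09, adjusted p = 0.39). Serpinb8 had the widest interval, with a log2 fold change of 1.09 in the overactive line (95% interval -0.06 to 2.24). Amphetamine mice of that line held 547 CPM of cortical markers at the median and saline mice 156 CPM. Serpinb6b lay at 0.23 (SE 0.19) in the overactive line and -0.09 (SE 0.20) in the control line, and the Serpinb1a row at -0.22 (SE 0.26) and -0.03 (SE 0.26).

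**Figure D3:**
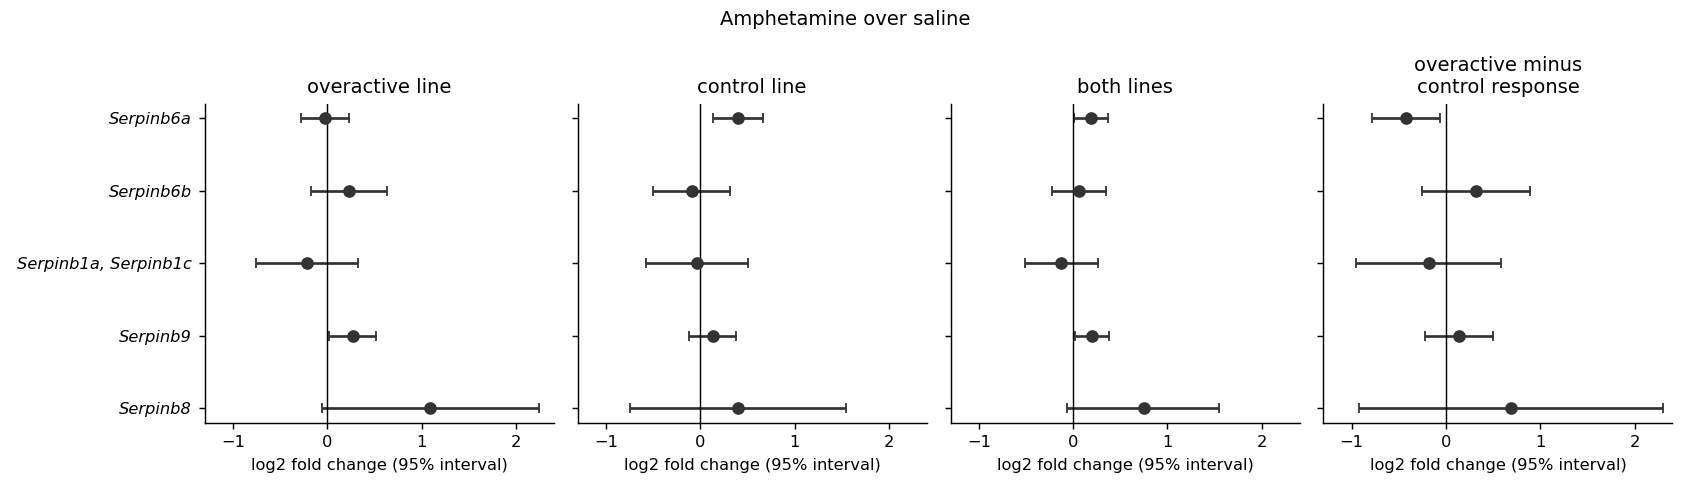
Log2 fold change of amphetamine over saline with its 95% interval (horizontal axes) for the 5 serpin rows (vertical axis), in the overactive line, the control line, both lines, and as the overactive minus the control response. For Serpinb6a the interval ran from -0.28 to 0.23 in the overactive line and from 0.14 to 0.66 in the control line, and no row passed after adjustment.

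The chromosomal surroundings of Serpinb6a were tested between the lines. Within 1 Mb on each side lay 28 other rows with a symbol, of which 15 were tested. With the treatments averaged 1 of them passed with edgeR, and it was lower in the overactive line, where 3.31% of all rows passed as lower. At an unadjusted p under 0.05 edgeR counted 3 of 15, where it counted 4405 of all 17206 rows. DESeq2 called 2 of 15, Bphl as lower and Ripk1 as higher, where it called 2095 of all rows. The median log2 fold change of the 15 was 0.05, against 0.00 over all rows, and 9 were positive. In saline and under amphetamine 0 of 15 passed with edgeR, where 1.11% and 0.453% of all rows passed. At an unadjusted p under 0.05 edgeR counted 0 and 4 of 15, against 2978 and 2212 of all rows. DESeq2 called 0 in saline and 1 under amphetamine, where it called 764 and 322 of all rows.

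The row that passed was Bphl (chromosome 13, 34037639 to 34074074), which encodes a serine hydrolase of mitochondria. In GENCODE 34.8 kb separate the start of Bphl from that of Serpinb6a, which runs the other way on the minus strand, and most of Ripk1 lies between them. In the table Bphl begins 2468 bases beyond the span that Serpinb6a shares with Nqo2, Ripk1 and 1110046J04Rik. Overactive mice with amphetamine held 15.1, 19.8, 16.4, 16 and 15.1 CPM, against 20.5, 20.2, 22.6, 29.3 and 22.8 CPM in control mice with amphetamine. Overactive mice with saline held 17.9, 14.4, 15.3, 17.3 and 17.3 CPM, against 16.8, 23.4, 16.7, 21.9 and 15.8 CPM in control mice with saline. As with Serpinb6a, the groups did not overlap under amphetamine and did in saline, and control saline libraries 2 and 4 stood above the other 3. Under amphetamine 1.36% of all tested rows were lower without overlap. The edgeR log2 fold change was -0.34 with the treatments averaged (SE 0.09, adjusted p = 0.0222). It was -0.49 under amphetamine (SE 0.12, adjusted p = 0.0813) and -0.20 in saline (SE 0.12, adjusted p = 0.413). With edgeR, amphetamine against saline gave 0.00 in the overactive line (SE 0.12, adjusted p = 0.999) and 0.29 in the control line (SE 0.12, adjusted p = 0.88).

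Bphl was also the gene whose pattern was most like that of Serpinb6a by both measures used, Pearson's r of log2 CPM over 20 libraries and r of the deviations from group means. These were 0.930 and 0.883, and Spearman's rho over libraries was 0.869. Since the Serpinb6a levels were divided at a gap, r was also taken on each side of it. It was 0.567 in the 13 libraries of the lower cluster and 0.837 in the 7 of the upper. It was 0.730 in the overactive and 0.954 in the control line (n = 10 each), and 0.904 to 0.953 over libraries with any 1 left out. Spearman's rho was 0.610 in the lower and 0.429 in the upper cluster. Next by r over libraries came Polr3d at 0.808, Ndrg4 at 0.793, Ssbp2 at 0.780 and Insl6 at 0.776, none of them near Serpinb6a. Ndrg4 was listed at 0 in both overactive groups and averaged 2260 and 2190 CPM in control mice with amphetamine and saline, so its likeness is that of a difference between lines. By deviations the next were Nap1l3 at 0.823, Kdelc2 at 0.777, 1110059E24Rik at 0.764 and Gm2721 at 0.758. Over libraries their r with Serpinb6a was 0.015, -0.302, 0.532 and -0.154 in the same order, and Gm2721 averaged 0.451 CPM. The libraries share their line and treatment, and these r values are descriptions.

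**Figure D4:**
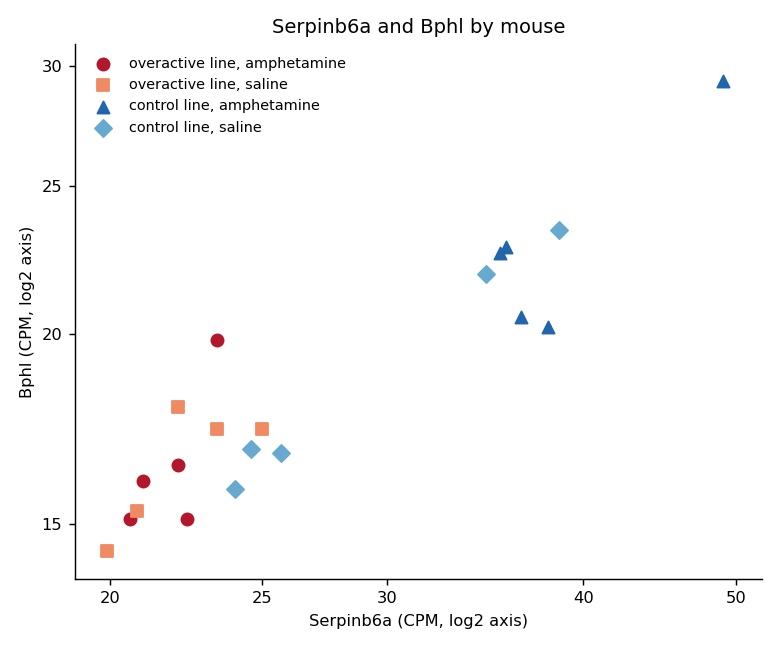
Bphl (vertical axis) against Serpinb6a (horizontal axis), both in CPM on log2 axes, in 20 mice with 1 symbol per group. The 13 libraries of the lower cluster lay between 14.4 and 19.8 CPM of Bphl, and the 7 of the upper cluster between 20.2 and 29.3 CPM.

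The rows that overlap Serpinb6a on the opposite strand had line differences of the other sign, none of which passed with edgeR. The table gives Nqo2, Ripk1 and 1110046J04Rik the same span as Serpinb6a, and in GENCODE their exons cover 14.1%, 4.46% and 10.8% of its 5409 exon bases. Whether counting used strand is not given in the sources used here, so reads from these overlaps may have been split among the rows. Nqo2, a quinone reductase, averaged 8.27 ± 1.21 CPM in overactive and 7.73 ± 0.525 CPM in control mice (SD, n = 10 each, log2 0.09, SE 0.07, edgeR adjusted p = 0.392). Ripk1, a kinase of inflammatory and cell death signalling, averaged 7.18 ± 0.509 and 6.35 ± 0.444 CPM in overactive and control mice (log2 0.18, SE 0.06, adjusted p = 0.0647), and it passed with DESeq2 at 0.0302. The antisense transcript 1110046J04Rik had a log2 fold change of 0.19 (SE 0.19, adjusted p = 0.553).

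Sequence shared with other genes differed among the 5. Of all 50-base words in GENCODE transcripts of Serpinb6a, 25.1% also occur in another gene, among them the 3 overlapping ones, Serpinb6b and Serpinb6c. The share was 2.92% for Serpinb6b, 2.81% for Serpinb1a, 0.378% for Serpinb9 and 0.165% for Serpinb8.

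**Figure D5:**
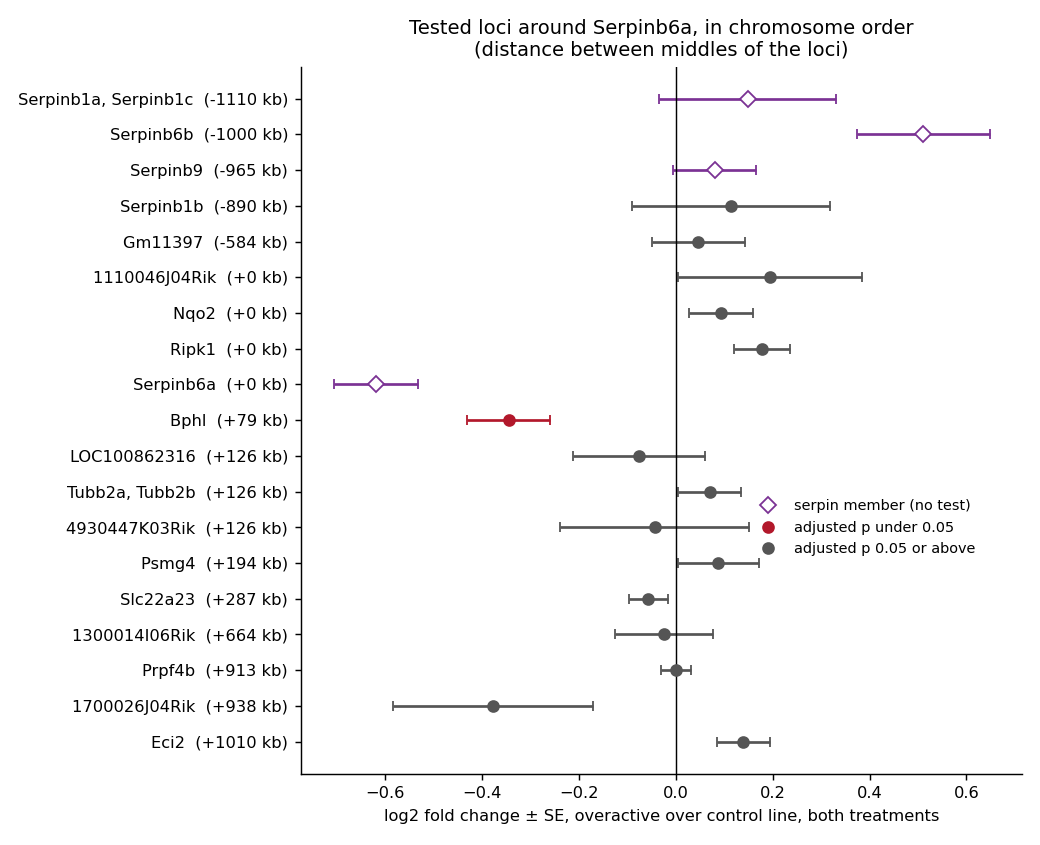
Log2 fold change ± SE of the overactive over the control line, both treatments (horizontal axis), for the tested rows around Serpinb6a in chromosome order (vertical axis), with the distance between the middles of the rows in kb. Serpinb6a at -0.62 and Bphl at -0.34 both lay on the negative side, and the overlapping Nqo2, Ripk1 and 1110046J04Rik lay between 0.09 and 0.19.

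The other clade B serpins had 22 rows, of which 19 fell below the filter, and Serpinb13, Serpinb3d, Serpinb9f, Serpinb9g and Serpinb6d were at 0 in all 20 libraries. None of the 3 tested passed between the lines in any comparison with edgeR or DESeq2. In saline, under amphetamine and with the treatments averaged, edgeR passed 1.11%, 0.453% and 7.02% of all rows. DESeq2 called 764, 322 and 2095 of them, so nothing is read from 0 of 3. In saline 2978 of all 17206 rows had an unadjusted edgeR p under 0.05, and so did 1 of the 3, in this line comparison only. That was Serpinb2 (plasminogen activator inhibitor 2), with 0.487 ± 0.192 CPM in overactive and 0.162 ± 0.166 CPM in control mice with saline (SD, n = 5, log2 1.57, SE 0.69, edgeR adjusted p = 0.246). It rested on 0 to 29 counts per library. For amphetamine against saline, edgeR also counted Serpinb2 at an unadjusted p under 0.05 in the overactive line (8.03% of all rows) and over both lines (11%). It was not counted in the control line (5.56%) or for the difference between the lines (2.96%). Serpinb1b, a neighbour of Serpinb1a, averaged 3.59 ± 1.33 and 3.31 ± 0.794 CPM in overactive and control mice (SD, n = 10 each, log2 0.11, SE 0.20). Gm11397, the nearest tested row on the other side of Serpinb6a, averaged 3.08 ± 0.408 and 2.99 ± 0.438 CPM in overactive and control mice (log2 0.05, SE 0.10).

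Of 28 rows of serpins of other clades, 11 were tested. With the treatments averaged 0 of 11 passed with edgeR, where 7.02% of all rows passed. At an unadjusted p under 0.05 edgeR counted 4 of 11 (Serpine2, Serpina9, Serpini1 and Serpinh1), against 4405 of all 17206 rows. DESeq2 called 1 of 11, Serpine2, where it called 2095 of all rows. The median log2 fold change of the 11 was 0.14 against 0.00 over all rows. Within treatments 0 of 11 passed with edgeR, where 1.11% of all rows passed in saline and 0.453% under amphetamine. At an unadjusted p under 0.05 edgeR counted 2 in each, against 2978 and 2212 of all rows. DESeq2 called 1 in saline and 0 under amphetamine, against 764 and 322 of all rows. Serpine2, protease nexin 1 of glia and neurons, was the most abundant of these serpins at 263 ± 19.4 CPM in overactive mice with amphetamine and 297 ± 20.2 CPM in overactive mice with saline, against 252 ± 10.7 and 260 ± 15.7 CPM in control mice with amphetamine and saline (SD, n = 5). Its log2 fold change over both treatments was 0.13 (SE 0.04, adjusted p = 0.0608).

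Of 26 proteases that serpins inhibit or that share pathways with them, 15 were tested. Elastase (Elane), a target of Serpinb1a, had 1 count in all 20 libraries together. Cathepsin G (Ctsg), a target of Serpinb1a and Serpinb6a, had 2 counts, and granzyme B (Gzmb), a target of Serpinb9, had 4. Proteinase 3 (Prtn3), also a target of Serpinb1a, had 582 counts and averaged 0.666 and 0.720 CPM in overactive mice with amphetamine and saline, against 0.777 and 0.659 CPM in control mice with amphetamine and saline (log2 -0.05 with the treatments averaged, SE 0.18, edgeR adjusted p = 0.885). Furin averaged 27.5 and 28.4 CPM in overactive mice with amphetamine and saline, against 26.7 and 27.9 CPM in control mice with amphetamine and saline (log2 0.04 over both treatments, SE 0.06, edgeR adjusted p = 0.731). Klk8, a kallikrein of neurons, averaged 1.33 and 1.52 CPM in overactive mice with amphetamine and saline, against 1.52 and 1.58 CPM in control mice (log2 -0.12, SE 0.14, adjusted p = 0.599).

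The protease that passed with edgeR was Ctss (chromosome 3, 95526785 to 95556403), cathepsin S, a lysosomal cysteine protease of microglia. Overactive mice with amphetamine held 49.6, 65.5, 67.8, 58.6 and 67 CPM, against 94.0, 97.9, 89.5, 89.3 and 76.2 CPM in control mice with amphetamine. All 5 overactive libraries lay below all 5 control libraries, as was so for 1.36% of all tested rows in this comparison. Overactive mice with saline held 70.6, 76.4, 83.0, 61.5 and 63.5 CPM, against 80.3, 84.8, 79.0, 70.4 and 110 CPM in control mice with saline, and these overlapped. The log2 fold change was -0.53 (SE 0.11, edgeR adjusted p = 0.0405) under amphetamine, where 0.232% of all rows passed as lower, and -0.40 (SE 0.08, adjusted p = 0.00662) over both treatments. The call under amphetamine was lost when any 1 of 8 libraries was left out, with an adjusted p of up to 0.0878, and that over both treatments held without each. With the treatments averaged DESeq2 called 2 of 15 proteases, Ctss as lower and Gzmk as higher, where it called 2095 of all 17206 rows. Gzmk, a granzyme of lymphocytes, averaged 3.04 ± 0.473 and 3.32 ± 0.494 CPM in overactive mice with amphetamine and saline, against 1.45 ± 1.05 and 2.11 ± 0.777 CPM in control mice with amphetamine and saline (SD, n = 5 each, log2 0.87, SE 0.27, edgeR adjusted p = 0.0556). T cell and natural killer cell markers together held at most 0.246 CPM, and which cells the Gzmk reads came from was not tested. In saline 0 of 15 proteases passed with edgeR or DESeq2, where these called 191 and 764 of all rows. At an unadjusted p under 0.05 edgeR counted 2 of 15, against 2978 of all rows. Of 7 microglia markers 0 passed between the lines, where 1.11% of all rows passed in saline, 0.453% under amphetamine and 7.02% with the treatments averaged. Their summed level lay between 367 and 465 CPM in overactive and between 381 and 483 CPM in control mice. Its median under amphetamine was 399 CPM in overactive and 434 CPM in control mice. In saline the median was 418 CPM in overactive and 406 CPM in control mice. The part of these markers in the Ctss level was not tested.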

How the data were processed

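RNA from the whole striatum of 20 mice was sequenced, 1 library per mouse. The authors deposited 1 table of expected counts per locus for all libraries. Builds mm10 and GRCm38 are named per the submitters' processing notes, and the aligner and counter are not given in the sources used here. Of the values 93.9% were whole within 0.01, and all were rounded. Rows without a gene symbol (10576 of 37051, 0.591 to 0.714% of a library's counts) were left out, and rows with several symbols (626) were kept.

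Rows were filtered with filterByExpr, scaled by TMM and fitted in all 4 groups with the quasi-likelihood test of edgeR 4.0.16 (R 4.3.3), with Benjamini-Hochberg adjustment over 17206 rows, after a test on simulated data. Python 3.11.15 gave levels and correlations of log2 CPM (prior count 2). Line and group came from the labels. Alternatives were DESeq2 1.42.0, RLE size factors, no filter, only the groups compared, a replicate block, and each library left out.

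The members and all gene and marker lists were chosen with earlier results of these data known. Named were the members, tested clade B serpins, up to 4 called rows per list, line comparison and direction, the nearest tested row on either side of Serpinb6a, and the 5 rows most like it by each measure. 1 serpin of another clade is not reported here. Furin, Klk8, Prtn3, Gzmk, the serpins of other clades, Serpinb2's saline value and drug response, the rows overlapping Serpinb6a and the unexpressed proteases were named after their values were seen. Exons came from GENCODE M21 (GRCm38). Promoter windows came from RefSeq (GRCm38.p6), where 4 of the 5 members matched. Litters are not labelled, so p-values measure the spread between mice.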

Additional observations from a re-analysis of the deposited data

Results flagged for a closer look

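In 9 of 52 gene and group combinations of 5 libraries, 1 library stood apart from the other 4 by Dixon's criterion (0.71), which chance meets in about 1 in 20. Library 4 of control mice with amphetamine was apart in 3 genes at the Serpinb6a locus, being highest for Serpinb6a at 49.1 CPM and Bphl at 29.3 CPM and lowest for Nqo2 at 6.76 CPM. Bphl was also high in overactive amphetamine library 2, at 19.8 CPM, and Ripk1 in overactive saline library 4, at 7.65 CPM. Control saline library 3 was high for Serpinb9, at 8.66 CPM. Serpinb2 was high in overactive amphetamine library 4, at 0.315 CPM, and in control amphetamine library 3, at 0.29 CPM. Gm11397 was low in overactive amphetamine library 4, at 2.37 CPM.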

How the results depend on the processing

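Over all rows DESeq2 called 764 in saline, 322 under amphetamine and 2095 with the treatments averaged, where edgeR called 191, 78 and 1208, and for amphetamine against saline it called 40 in the overactive line, 0 in the control line and 181 with the lines averaged, where edgeR called 0. Around Serpinb6a DESeq2 called 1 row under amphetamine (Bphl) and 2 with the treatments averaged (Ripk1 and Bphl), and leaving out single libraries gave 1 to 2, Ripk1 joining without overactive amphetamine library 4 (adjusted p = 0.0338). Of the serpin and protease lists, DESeq2 called 1 in saline (Serpine2) and 3 with the treatments averaged (Serpine2, Gzmk and Ctss), against 0 and 1 with edgeR, and single omissions gave 1 to 3 with the treatments averaged and 0 to 1 under amphetamine. With the replicate number as a block, 0 genes of these lists passed under amphetamine, since Ctss reached an adjusted p of 0.054, and 3 passed with the treatments averaged (Serpine2, Serpina9 and Ctss). The block also turned the line difference under amphetamine to -0.01 for the Serpinb1a row (SE 0.26 without it) and to -0.06 for Serpinb8 (SE 0.54 without it). Without a filter 2 passed with the treatments averaged (Serpina3i and Ctss). What the replicate numbers mean is not in the labels. Correlations of same-numbered deviations ran from -0.232 to 0.247, over 0.1 in 10 of 30 pairs. Their median was 0.035, against -0.008 for different numbers, and 5 of 20 libraries correlated best with their own number. Same-numbered mice were thus little alike, but weak correlations cannot settle whether the numbers pair them. Directions reversed in 3 drug responses when a library was left out. Serpinb6b in the control line ran from -0.19 to 0.04, above 0 without control amphetamine library 2. The Serpinb1a row in the control line ran from -0.12 to 0.07, above 0 at 0.05, 0.01 and 0.07 without control amphetamine libraries 2 and 4 and control saline library 4. Serpinb6a in the overactive line ran from -0.06 to 0.02, above 0 without overactive saline library 4. Line differences that changed sign on leaving out 1 library were those of Serpinb8 (-0.97 to 0.09 in saline, -0.05 to 0.37 under amphetamine, -0.43 to 0.11 averaged), the Serpinb1a row (-0.28 to 0.22 under amphetamine, -0.02 to 0.23 averaged) and Serpinb9 (-0.03 to 0.09 in saline). The causes were not tested. Bphl kept its call without each library, at adjusted p 0.0172 to 0.0409.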
